A study of Homo sapiens with 6 samples.

Results

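The genes of the mitochondrial respiratory chain and ATP synthase were examined in AB 8/13 cells, a conditionally immortalized human podocyte line that divides at a permissive temperature and differentiates at a restrictive one. They were chosen by gene name alone, as rows whose name starts with MT- or follows the naming of the subunits of complexes I to V, without pseudogenes, which gave 104 of the 20745 genes in the table. Of these, 22 were encoded by the mitochondrial genome, namely 13 mRNAs, 2 rRNAs and 7 tRNAs, and 82 were nuclear. The nuclear genes comprised 37 of complex I, 4 of complex II, 9 of complex III, 13 of complex IV and 19 of complex V, and 6 pseudogenes with matching names were left out. NDUFA4 was counted with complex IV, where its protein is known to reside despite its name.

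RNA came from differentiated cultures, 3 of them vehicle-treated and 3 treated for 24 h with levamisole, an anthelminthic and immunomodulating drug, at 1 µM. All 6 cultures came from the same line, and the replicates within a group were from different cell passages. By the labels both groups were kept without serum for that time, while the study's methods describe complete medium for the vehicle, so the medium of the vehicle cultures is uncertain. An adapted CEL-seq protocol was used, in which cDNA synthesis starts at the poly(A) tail, so that most reads come from the last part of a transcript. The only measurement used here was the base mean of each gene, which is its count after scaling for library size, which the authors then averaged across all libraries they fitted together. It pools both treatments and gives no value per culture. All levels below are therefore the authors' means without an error or a test, the depth per library is unknown, and vehicle and levamisole were not compared.

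Oxidative phosphorylation couples electron transfer to ATP synthesis at the mitochondrial inner membrane. Complex I takes electrons from NADH and complex II takes them from succinate, complex III passes them to cytochrome c, complex IV hands them to oxygen, and complex V, the ATP synthase, uses the proton gradient built by complexes I, III and IV. Subunits of complexes I, III, IV and V come from both genomes, while those of complex II are all nuclear. The mitochondrial genome is transcribed as long precursors from both strands, from which mRNAs, rRNAs and tRNAs are cut. In podocytes, these subunits serve the energy supply of a cell with a large actin cytoskeleton.

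Markers of the labelled cell type were uneven in the table. Of the 12 podocyte markers, 10 had a row, and the broadly expressed VIM and ACTN4 were the highest, with base means of 19062 and 14320. The podocyte transcription factor WT1 had a base mean of 6.21, and PTPRO, a podocyte surface phosphatase, had one of 0.333. Of the endothelial markers 2 of 4 had a row and of the immune markers 3 of 4, and none of these 5 base means exceeded 2.40. Of the 5 listed tubule markers 2 had a row, and CUBN was at 1.2, whereas the water channel AQP1 was at 243. The median base mean of all genes was 21.8, and 7409 genes had a base mean under 5.

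The mitochondrially encoded genes held 34.8% of the summed base means of the table, and the 82 nuclear genes held 0.669%. Per kb of exon, the mitochondrial share was 66.8% and the nuclear share 0.651%, and without mitochondrial genes in the total the nuclear share of base means was 1.03%. Exon length joins all annotated exons of a gene, while reads fall near transcript ends. Values per kb therefore depend on the annotation. The 13 mitochondrial mRNAs contributed 27.1% and the 2 rRNAs 7.655%, whereas the 7 tRNAs contributed 0.00348%. Of the 20 genes with the highest base mean, 10 were mitochondrially encoded, and 9 of those were mRNAs. All 13 mitochondrial mRNAs except MT-ND6 had a higher base mean than every nuclear subunit gene. The same 12 of 13 stood above every nuclear subunit gene after division by exonic length.

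MT-CYB, which encodes the cytochrome b of complex III, had the highest base mean of all 20745 genes, at 780614. It alone made up 12.3% of the summed base means and 45.4% of the mitochondrial mRNA total. It also led the mitochondrial mRNAs per length, at 684149 per kb.

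Among the complex I mRNAs, MT-ND4, a subunit of the proton-pumping membrane arm, had a base mean of 239811. MT-ND1 and MT-ND3, which lie near the quinone site at the junction of both arms, were at 65122 and 64198. MT-ND5 was at 50729, MT-ND4L at 22368 and MT-ND2 at 18837. The 7th, MT-ND6, was at 7.97, below the median of all genes. MT-ND6 was the only one of the 13 mRNAs on the minus strand in the annotation, and the next lowest mRNA, MT-ATP8, was at 7205. Since cDNA synthesis starts at the poly(A) tail, a base mean also depends on the tail of each RNA. The part of strand or tail in the MT-ND6 value was not tested.

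For complex IV, MT-CO3 had a base mean of 147687, MT-CO2 one of 47790 and MT-CO1, the catalytic subunit with the oxygen-binding site, one of 37518. MT-CO3 was thus 3.94-fold above MT-CO1 on the base mean and 7.74-fold above it per kb. For complex V, MT-ATP6, the subunit a of the proton channel, was at 239201 and MT-ATP8 at 7205. The difference between these neighbours was 33.2-fold on the base mean and 10.1-fold per kb. MT-ATP6 and MT-ATP8 share 46 bases, and 22.2% of the end of MT-ATP8 lies within MT-ATP6. MT-ND4 and MT-ND4L, which share 7 bases, differed 10.7-fold on the base mean and 2.31-fold per kb. Reads that fall in bases shared by 2 genes are left uncounted at the default setting of the authors' counter, and the part of this in these differences was not tested. Base means count reads within annotated genes, so neither difference need be one between separate transcripts.

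**Figure D1:**
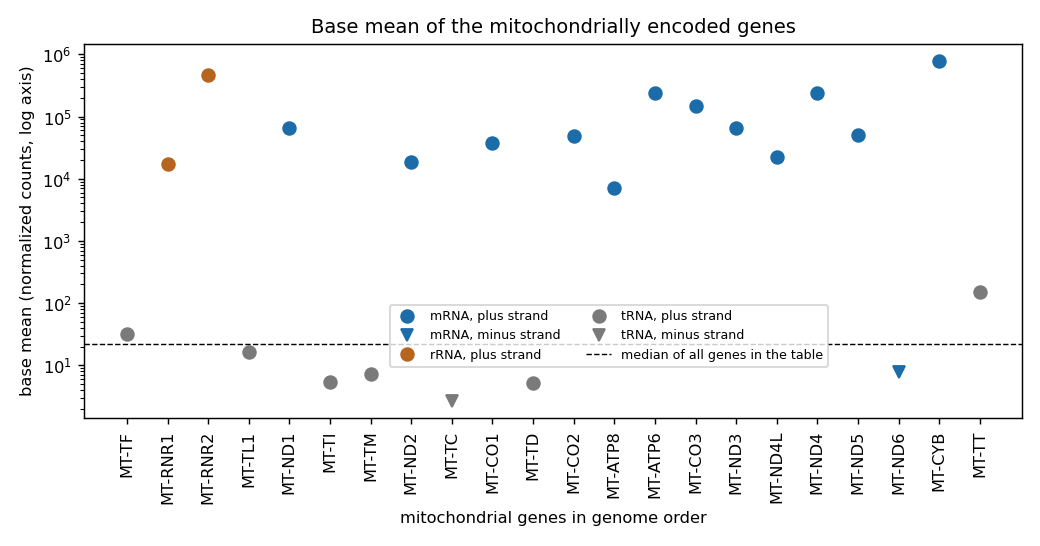
Base mean (normalized counts, log axis) of the 22 mitochondrially encoded genes in genome order, with 1 point per gene as the authors' mean over libraries; circles are genes on the plus strand, triangles those on the minus strand. The plus strand mRNAs sit between 7205 and 780614, while MT-ND6 at 7.97 and most tRNAs lie below the dashed median of all genes at 21.8.

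Of the rRNAs, MT-RNR2, the large ribosomal RNA of the mitochondrial ribosome, had a base mean of 468318 and MT-RNR1, the small one, had 17421. The ratio was 26.9 on the base mean and 16.45 per kb. Only 7 of the 22 annotated mitochondrial tRNA genes had a row in the table. MT-TT, the threonine tRNA that lies directly downstream of MT-CYB in the annotation, was the highest of them at 152, and MT-TF followed at 31.8. The other 5 lay between 2.68 for MT-TC and 16.3 for MT-TL1. Poly(A) tails of these RNAs were not measured, so base means of the rRNAs and tRNAs may differ from their amounts.

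Mitochondrial genes have nuclear copies, most of them pseudogenes, and reads that fit both places equally well are not assigned to either. Of all 60-base windows of each gene, the length of the sequenced read, 44.1% had an exact copy elsewhere in GRCh38 for MT-CO1, 39.4% for MT-ATP6 and 36.4% for MT-RNR1. MT-CYB, MT-ND4 and MT-ND5 had such copies in 0.3%, 1.4% and 2.3% of their windows, and MT-ND3 and MT-ND4L in 0%. Few copied windows were thus found both in MT-CYB, the highest gene, and in MT-ND4L, which was 34.9-fold lower. MT-ATP6 had many at a high base mean. Other genes went the other way. MT-RNR2 had copies in 9.1% of its windows and was 26.9-fold above MT-RNR1. In the last 500 bases, 36.1% of the windows had copies for MT-ND2, whose base mean was 18837. For the same stretch the share was 53.7% for MT-CO1, 52.2% for MT-RNR1, 44.4% for MT-ND1, 44.2% for MT-ATP6 and 0% for MT-CYB. The part of such copies in these levels was not tested.

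The table listed 79 nuclear pseudogenes of mitochondrial mRNAs, of which 58 had a base mean under 5. MTATP6P1, on chromosome 1 of GRCh38 from 633696 to 634376 on the plus strand, had one of 61142 and held 93.2% of their sum. This placed it at rank 9 in the whole table, 3.91-fold below MT-ATP6, which lies on chromosome M from 8527 to 9207 on the plus strand. Next came MTND4P12 with 2786 and MTND4P35 with 732.5. MT-ATP6 and MTATP6P1 were both 681 bases long and differed at 10 positions, an identity of 98.5%. The last 90 bases of both genes in the reference (chrM:9118-9207 and chr1:634287-634376) are shown because reads of this protocol fall near the 3′ end, and the capital letter marks the only position that differs there.
MT-ATP6: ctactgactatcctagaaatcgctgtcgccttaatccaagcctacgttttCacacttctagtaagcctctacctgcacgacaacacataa
MTATP6P1: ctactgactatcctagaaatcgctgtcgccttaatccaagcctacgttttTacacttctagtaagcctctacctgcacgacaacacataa
Within this stretch, a 60-base read is told apart only by that base, so the base means of both genes are uncertain.

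In each complex with subunits of both genomes, the summed base mean of the few mitochondrial mRNAs exceeded that of the many nuclear genes. For complex I, 7 mitochondrial mRNAs summed to 461073 and 37 nuclear genes to 11937, a ratio of 38.6. The ratio was 247 for complex III, where MT-CYB faced 9 nuclear genes with a sum of 3157. This nuclear sum leaves out CYC1, the cytochrome c1 of complex III, at 698, because the naming rule does not take it in. The ratio was 17.7 for complex IV, with sums of 232995 and 13132, and 18.7 for complex V, with sums of 246406 and 13195. Per kb of exon, the ratios were 69.9 for complex I, 499 for complex III, 39.4 for complex IV and 78.3 for complex V.

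**Figure D2:**
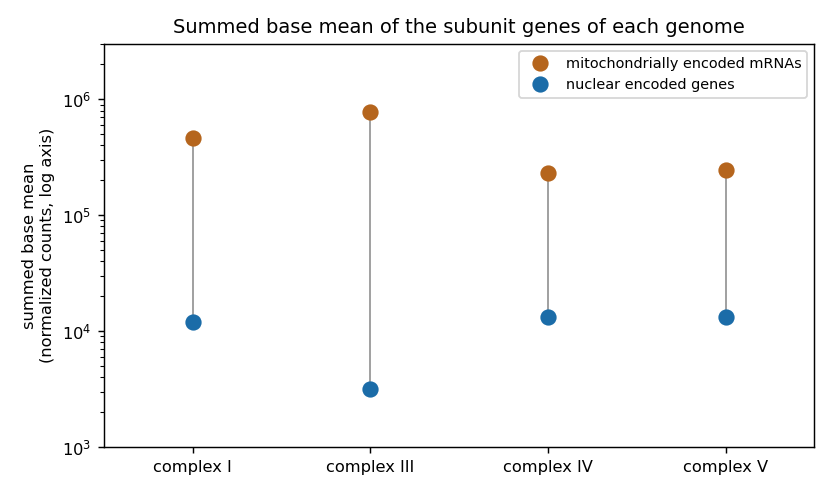
Summed base mean (normalized counts, log axis) of the mitochondrially encoded mRNAs (orange) and of the nuclear encoded genes (blue) of complexes I, III, IV and V, joined by a line. The mitochondrial sums run from 232995 to 780614 and the nuclear sums from 3157 to 13195, so that the orange point is above the blue one in all 4 complexes. The nuclear sum of complex III leaves out CYC1.

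The 82 nuclear genes had a median base mean of 275, against 21.8 for all genes. Of these, 75 were above the median of all genes, 67 had a base mean of at least 100 and 12 had one of at least 1000. For scale, 71.2% of all genes in the table lay below UQCC2, an assembly factor at 102.9, and 96.3% below ATP5F1A at 994. The 10% of genes with the highest base mean included 28 of the 82, and the 10% highest per kb of exon included 48. By complex, the median was 217 for complex I, 247 for complex II, 347 for complex III, 519 for complex IV and 462 for complex V. Per kb of exon, the medians were 75.3, 99.7, 91.5, 325 and 177, so complex IV led and complex I was lowest on both scales, while complexes II and III changed places.

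**Figure D3:**
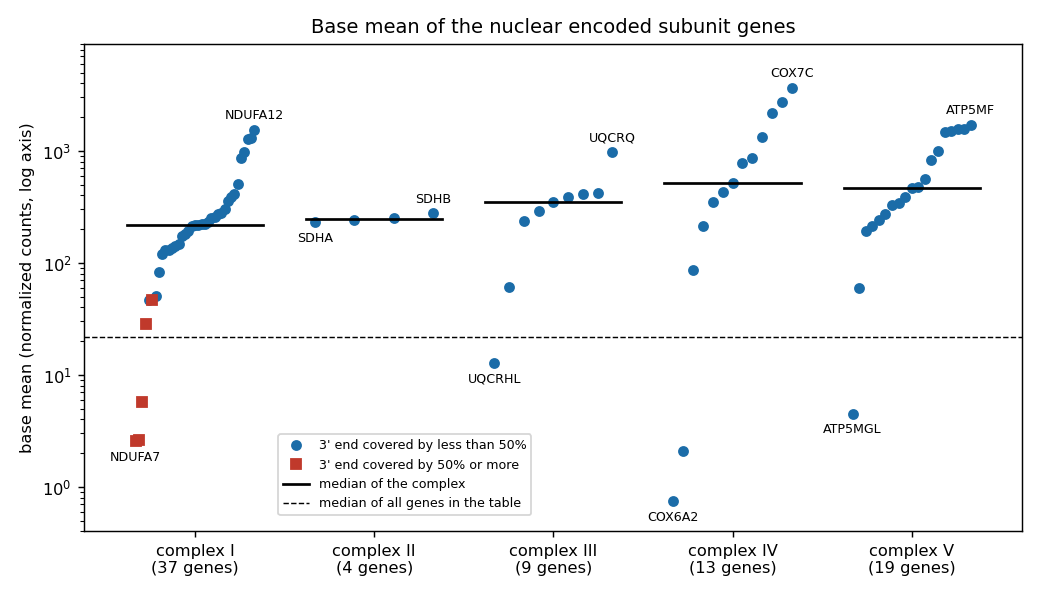
Base mean (normalized counts, log axis) of the 82 nuclear encoded genes, 1 point per gene, in order of level within each complex; black lines are the medians of the complexes, and red squares are genes with 50% or more of the 3′ end lying in exons of a same-strand neighbour. The complex medians lie between 217 and 519, all above the dashed median of all genes at 21.8, and 4 of the 5 red squares are the 4 lowest genes of complex I.

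The nuclear genes of complex I, the most numerous with 37, ran from 2.55 for NDUFA7 to 1534 for NDUFA12. The highest were 3 accessory subunits, NDUFA12 at 1534, NDUFB6 at 1303 and NDUFA1 at 1286. Per kb, NDUFA12 was at 187, whereas the short NDUFA1 was at 3055, so the order of these genes depends on the scale. The 7 nuclear core subunits, which carry the flavin and the iron-sulfur clusters or line the quinone site, had a median of 136, and the 30 accessory subunits had one of 221. On the per kb scale these medians were 26.8 and 106.

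The core subunits themselves covered a wide range. NDUFS1, the largest of them and a holder of iron-sulfur clusters, was the highest with a base mean of 973. NDUFS3 was at 146, NDUFV1, which binds flavin and NADH, at 136, and NDUFS8 at 131. NDUFS7 was at 50.3 and NDUFV2, another iron-sulfur protein of the NADH-binding module, at 2.64. NDUFV2 was thus listed 369-fold below NDUFS1. However, 90.2% of the 3′ end of NDUFV2 lies in exons of a same-strand neighbour, so its level is uncertain. Without NDUFV2, the lowest core subunit was NDUFS7 at 50.3.

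The 4 genes of complex II lay closest together. SDHB, the iron-sulfur subunit, had a base mean of 276, and the membrane anchors SDHC and SDHD had 254 and 241. SDHA, the flavoprotein that oxidizes succinate, had 232. The highest exceeded the lowest 1.19-fold on the base mean, but not per kb, where SDHC was at 133 and SDHA at 26.7. The annotated exons joined for this scale were 1902 bases for SDHC and 8703 for SDHA.

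In complex III, UQCRQ, a small subunit next to cytochrome b, was the highest at 980. The core proteins UQCRC2 and UQCRC1 were at 387 and 293, and UQCRFS1, the Rieske iron-sulfur protein that moves electrons towards cytochrome c1, was at 424. UQCRH, the hinge protein, was at 414. The lowest were UQCR10 at 239, UQCR11 at 61.1 and UQCRHL, a gene closely related to UQCRH, at 12.8. UQCRH exceeded UQCRHL 32.3-fold on the base mean and 52.6-fold per kb. Since 29.7% of the end windows of UQCRH and 10.1% of those of UQCRHL had an exact copy elsewhere, both values are uncertain. CYC1, the cytochrome c1 of this complex, which the naming rule does not take in, was at 698, and CYCS, the mobile cytochrome c, was at 1132.

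Complex IV held the 3 highest nuclear genes of the whole set. COX7C had a base mean of 3631, COX7A2 one of 2746 and COX4I1, the broadly expressed form of subunit IV, one of 2183. NDUFA4 followed at 1329, COX8A at 864, COX7B at 777, COX6B1 at 519 and COX5A at 431. COX6C was at 349, COX5B at 213 and COX6A1 at 87.1.

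The tissue-restricted isoforms of complex IV were low. COX6A2, the heart and skeletal muscle isoform, had a base mean of 0.750 against 87.1 for COX6A1, a ratio of 116 on the base mean and 41.0 per kb. The striated muscle markers ACTC1 and CKM were at 4.43 and 0.894. COX6B2, an isoform known from testis, had 2.10 against 519 for COX6B1, a ratio of 247 on the base mean and 671 per kb. With base means this low, the sizes of these ratios are imprecise. COX4I2, COX7A1, COX7B2 and COX8C had no row in the table.

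In complex V, ATP5MF, a small subunit at the membrane, was the highest at 1695, followed by ATP5PF of the peripheral stalk at 1574. Within the catalytic head, the beta subunit ATP5F1B, which holds the catalytic sites, was at 1515 and the alpha subunit ATP5F1A at 994. The central stalk subunits were lower, with ATP5F1C at 566, ATP5F1E at 327 and ATP5F1D at 275. ATP5IF1, the inhibitor of ATP hydrolysis, was at 478, and ATP5PO, which joins the head to the stalk, at 194. The lowest were ATP5PO, ATP5ME at 59.3 and ATP5MGL, a gene related to ATP5MG, at 4.52.

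The c ring of the rotor is known to be built from 1 mature protein that 3 genes encode with different import sequences. ATP5MC2 had a base mean of 1558, ATP5MC3 one of 830 and ATP5MC1 one of 462. ATP5MC2 exceeded ATP5MC3 1.88-fold and ATP5MC1 3.37-fold, and the order was the same per kb, with ratios of 1.87 and 2.26. Together the 3 genes summed to 1.88 times the base mean of ATP5F1B.

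A read is counted only if it belongs to 1 gene, so the last 500 exonic bases of each nuclear gene, or all of a shorter transcript, were compared with the exons of other genes on the same strand. In 72 of the 82 genes no base was covered, and in 5 genes 50% or more were covered. Those 5 were all accessory or core subunits of complex I, and their base means ran from 2.55 to 47.0 with a median of 5.74. The median of the other 77 was 279. The split was made after the levels were seen and is a description.

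NDUFV2 (chromosome 18, 9102630 to 9134345, plus strand) was covered over 90.2% of its end by ENSG00000265257. NDUFA13 (chromosome 19, 19515736 to 19529054, plus strand), with a base mean of 28.5, was covered over 83.6%. NDUFA7 (chromosome 19, 8308768 to 8321375, minus strand) was covered over 74.4%. NDUFA11, also on chromosome 19, had a base mean of 47.0 and 64.0% covered, and NDUFB8, on chromosome 10, had 5.74 and 62.0%. The levels of these 5 genes are therefore uncertain, and the part of the overlap in them was not tested.

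Low base means were also seen without such cover. COX6A2, COX6B2, ATP5MGL and UQCRHL had no covered base, nor did NDUFA9, at 46.7, or NDUFS7, at 50.3. In turn, ATP5MF, the highest gene of complex V, was covered over 37.2% of its end, COX8A over 35.4% and ATP5PO over 45.2%. COX6A1 had both 35.0% of its end covered and an exact copy elsewhere for 58.7% of its end windows. SDHC had copies for 60.1% of its end windows at a base mean of 254, close to the other genes of complex II. Of the 82 nuclear genes, 27 had at least 1 copied end window.

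**Figure D4:**
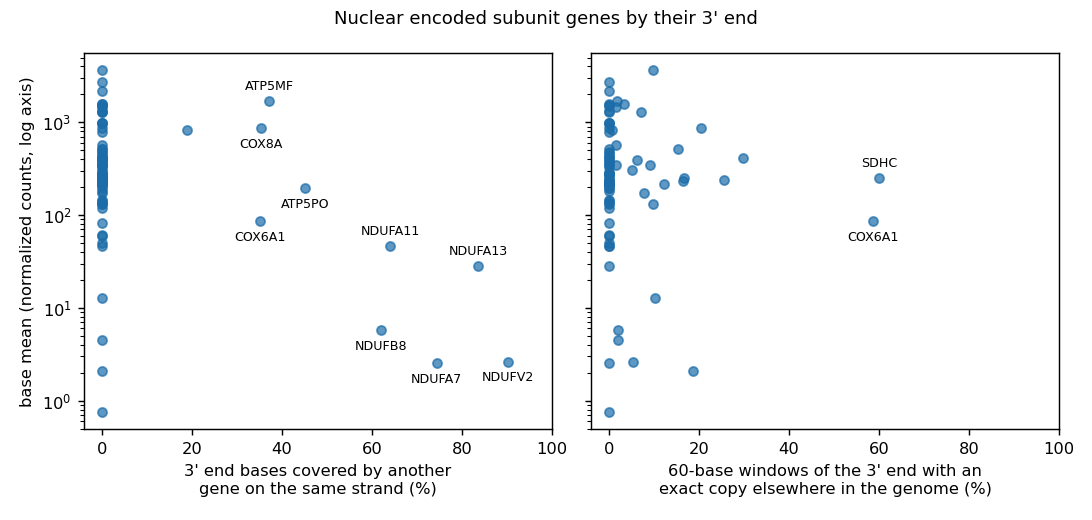
Base mean (normalized counts, log axis) of the 82 nuclear encoded genes, 1 point per gene, against the share of the 3′ end lying in exons of a same-strand neighbour (left) and the share of 60-base end windows with an exact copy elsewhere in the genome (right). The 5 genes past 50% on the left lie between 2.55 and 47.0, whereas the 2 genes past 50% on the right, COX6A1 and SDHC, lie at 87.1 and 254.

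Factors that build the complexes were lower than the subunits. Of 45 listed assembly factors, 44 had a row, with a median base mean of 72.0 and, per kb, of 24.1, against 275 and 114.5 for the nuclear subunits. They ran from PET100, a complex IV factor, at 7.43 to TMEM70, an ATP synthase assembly factor, at 1094. NDUFA4L2, a paralog of NDUFA4 known to respond to hypoxia, was at 1.97, while COX7A2L, a supercomplex factor related to COX7A2, was at 492.

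Of 22 listed genes that maintain and express mitochondrial DNA, 20 had a row, with a median base mean of 66.1 and, per kb, of 14.4. SSBP1, the single-stranded DNA binding protein, was the highest at 533 and TWNK, the replicative helicase, the lowest at 24.6. SLIRP and LRPPRC, which together stabilize mitochondrial mRNAs, were at 347 and 323. TFAM, which packages the genome and starts its transcription, was at 204, and the RNA polymerase POLRMT at 29.0. Among the nuclear regulators of respiratory genes, YY1 was at 440.5, GABPA at 73.3, the coactivator PPARGC1A at 46.7, NRF1 at 19.4 and ESRRA at 13.0.

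Promoter windows of RefSeq on GRCh38.p14, from 250 bases before to 50 after the start, were found for 67 of the 82 nuclear genes, and the first window listed for each gene was searched on both strands for motifs of 3 of these factors. The letters CCGGAAG, the core of GABPA and other ETS factors, were present in 20 of the 67 (29.9%) and in 10.7% of all 27305 promoters. GCGCATGC, part of the NRF1 motif, was present in 13 (19.4%) and in 3.3% of all. AAGATGGC, the core of YY1, was present in 11 (16.4%) and in 3.0% of all. The last letters of CCGGAAG are also the first of AAGATGGC, so that matches of both can overlap. At least 1 of the motifs was found in 34 of the 67 windows, but the share of all promoters with at least 1 was not computed. This count therefore has no baseline, and the 27305 promoters were not limited to genes detected here. The median base mean with and without the motif was 364 and 239 for CCGGAAG, 276 and 248 for GCGCATGC, and 219 and 266 for AAGATGGC. Differences of this size are small beside the spread of the members and were not tested.

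ATP5PF and SDHB were the only 2 members with all 3 motifs, and the 250 bases before their starts are shown for that reason. Both windows lie on the minus strand, at chr21:25735055-25735304 and chr1:17054033-17054282, and capitals mark the motifs that fall in these bases, in either direction.
ATP5PF: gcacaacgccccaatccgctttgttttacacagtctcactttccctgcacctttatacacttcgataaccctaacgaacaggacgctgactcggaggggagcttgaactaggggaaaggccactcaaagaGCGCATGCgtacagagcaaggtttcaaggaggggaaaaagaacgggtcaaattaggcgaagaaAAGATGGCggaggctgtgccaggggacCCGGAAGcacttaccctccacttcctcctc
SDHB: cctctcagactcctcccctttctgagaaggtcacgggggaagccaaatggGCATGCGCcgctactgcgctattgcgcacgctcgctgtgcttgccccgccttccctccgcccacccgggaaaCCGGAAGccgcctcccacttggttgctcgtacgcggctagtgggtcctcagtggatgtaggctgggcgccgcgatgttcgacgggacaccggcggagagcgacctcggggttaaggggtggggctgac
In ATP5PF all 3 motifs lie before the RefSeq start used here, while in SDHB the YY1 letters lie among the 50 bases after it. In the annotation used for gene positions, ATP5PF runs from 25716503 to 25735673, so by that annotation its window lies inside the gene. ATP5PF was the second highest gene of complex V at 1574, whereas SDHB was at 276, near the median of all nuclear subunit genes.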

How the data were processed

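The data came from 3 vehicle-treated and 3 levamisole-treated cultures. Per the study's methods and processing notes, the authors used Trim Galore 0.4.5 for trimming, STAR 2.7.5a for mapping to GRCh38 (Ensembl 95), HTSeq 0.11.0 at default settings for counting per gene and DESeq2 1.22.0 for comparing the groups. For the same libraries the methods also describe mapping by BWA MEM, which the processing notes do not name. The deposited base mean, a signal, is the count per gene after the authors' scaling for library size, as 1 mean across all libraries they fitted together. How many libraries that fit held is not given in the sources used here. The same table holds the authors' fold changes, standard errors, test statistics and p-values for levamisole against vehicle, which were not used. With those columns left out and no values per culture, no comparison of the groups, error or count test was made.

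Ranks, medians, sums and ratios were computed with Python 3.11.15, NumPy 2.4.6 and pandas 2.3.3, and figures were drawn with matplotlib 3.10.9. Lengths (all annotated exons of a gene), positions and covered ends came from GENCODE 44 on GRCh38, in which 20599 of the 20745 identifiers were found. Genes with an identifier above the highest one listed in the table were not used as covering genes. CEL-seq counts transcript ends, so base means were compared as deposited and, beside that, per kb of exon. The search for 60-base copies used the GRCh38 sequence on both strands without alternate contigs. Sequences were aligned with Biopython 1.88. The ranking and copy search were tested on simulated data.

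The members were taken by the naming rule alone, but that rule and the gene lists were chosen with earlier results of these data known. The genes named are every mitochondrial member, the 3 highest and 3 lowest nuclear members of each complex, the isoform groups, the catalytic and cofactor-carrying subunits, and the extremes of the lists, apart from items that are not reported here. Other members and MTATP6P1 were named after their values were seen.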

Additional observations from a re-analysis of the deposited data

How the results depend on the processing

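No paired analysis was possible because base means pool all cultures, and for the same reason no replicate could be left out. Without an error, a value within 1.5 times of the one reported was taken as unchanged. No ratio turned its direction in the alternatives run. Per kb of exon, the mitochondrial share became 66.8%, the members in the top 10% became 48, the medians over that of all genes rose from 11.4 to 18.0 for complex II, from 23.9 to 58.7 for complex IV and from 21.2 to 31.9 for complex V, and the isoform ratios were 41.0 for COX6A, 671 for COX6B and 52.6 for UQCRH. The ratios of mitochondrial to nuclear sums per kb were 69.9, 499, 39.4 and 78.3 for complexes I, III, IV and V, and ratios of medians were 234, 2249, 92.0 and 267. The nuclear share was 1.03% without mitochondrial genes in the total, 59 members were in the top 20%, and a pseudocount of 1 lowered the COX6A ratio to 50.3. The mitochondrial share was 25.6% without MT-CYB, an alternative chosen after seeing the data.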
